A study of Bos taurus with 48 samples.

Results

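Myosin light chains were followed in bovine Longissimus muscle through 7 genes: MYL1, MYL2, MYL3, MYL4, MYL6, MYL6B and MYLPF. They are the probes whose gene name, or whose symbol in the description of the array, equals one of these names, and all 7 were found among the 19802 gene names of the array, with 1 probe in 2 spots each. In the developmental experiment, muscle of Piedmontese × Hereford cattle was hybridised against muscle of Wagyu × Hereford cattle, with the 2 dyes swapped between arrays. Fetuses were taken at 60, 135 and 195 days of gestation and calves at birth (3 arrays each), and cattle were sampled at 3, 7, 12, 20, 25 and 30 months of age (4 arrays each). In the diet experiment, adult Belmont Red cattle on a weight loss diet were compared with cattle on a weight growth diet at times 0, 1 and 2 (4 arrays each) of a deprivation and re-alimentation trial, and the sources used here do not date these times. The 48 arrays hold 35 animals, and the limit of some groups is the number of animals: the arrays of 60 days repeat 1 animal of each cross, only 2 Wagyu cross animals were measured at 12 months, and only 2 animals per diet at time 2. The cattle after birth were 5 Piedmontese and 4 Wagyu cross animals. They were measured repeatedly, except for the Piedmontese cross animal GP273, which was measured only at 7 months. The labels call every sample a biopsy of longissimus dorsi skeletal muscle.

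Each myosin motor consists of a pair of heavy chains, and every heavy chain carries 1 essential and 1 regulatory light chain around its lever arm. The light chains stiffen that lever arm and tune the force and speed of the motor, and the regulatory chain can be phosphorylated by a myosin light chain kinase. Skeletal muscle replaces its light chains, like its heavy chains, as fibres mature and as they become fast or slow. MYL1 encodes the essential chains of fast fibres and MYLPF the regulatory chain of fast fibres. MYL3 encodes the essential chain and MYL2 the regulatory chain shared by slow fibres and the heart ventricle. MYL4 encodes the essential chain of embryonic muscle and the heart atrium. MYL6 encodes the essential chain of non-muscle and smooth muscle myosin, and MYL6B an essential chain of slow fibres and non-muscle cells, and in the RefSeq table of assembly ARS-UCD2.0 these last genes are direct neighbours on chromosome 5. That table lists MYLPF under its present symbol, MYL11.

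Because every value below is the brightness of one probe, the 3′ ends of the 7 probes are shown, each as the last 30 of its 60 bases, 5′ to 3′. Capitals mark the letters AATAAA, the polyadenylation signal found near the end of many transcripts.
MYL1: tgtataccatgggtcaaagaacatccttaa
MYLPF: acccccctggctcgattcctAATAAAttga
MYL3: ctgactccaccccttgggcctcatgaataa
MYL2: ccgtgttcaAATAAAaaggaggtcgtgtaa
MYL4: ataAATAAAcagcttcagcaaggctgggct
MYL6: tccccagattctctttcttggatgatgtct
MYL6B: gaggctattgtttcaaAATAAAgagacgtt
The letters were searched on the strand of the probe, and 4 of the 7 members hold them, against 9.82% of all 21475 probes in a window of the same length. The longest run of bases that any pair of members shares over the whole probes is 9, in MYL6B and MYLPF. The array file gives the probes of MYL1 and MYL3 the same gene name and accession, so only the symbol in their descriptions separates them.

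Levels are log2 fluorescence intensities after normalization, averaged over the channels of 1 animal at 1 time. They can be compared between animals for 1 probe, not between probes. All 7 probes were well above background in all 96 channels, and no spot of theirs was saturated. Changes are differences on the log2 scale with their standard error (SE), estimated by limma with the dye as a covariate and the animal as a block. A change was called when its Benjamini-Hochberg adjusted p over the 15737 probes tested was below 0.05. In bulk tissue, fewer cells of a type and less RNA per cell cannot be told apart.

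The tissue label was checked against muscle markers, and 1 animal stood apart. GP672, a Piedmontese cross fetus of 135 days, had a median correlation of 0.926 with the other animals of its time over all probes tested. It lay below all 4 other animals of 135 days on 7 of 7 skeletal muscle fibre probes, with a median difference of -4.52 log2 units. It lay above them on 4 of 4 adipocyte probes, 4 of 4 erythroid probes and 5 of 6 smooth muscle probes, with MYH11, the smooth muscle heavy chain, at 14.4 against 9.38 to 10.1. Its list level was 9.43 for fibre markers against 13.5 to 14.1 in the others, and its level of ACTA1, the skeletal muscle actin, was 9.97 against 16.8 to 17.6. Of the light chains, 6 of 7 were low in GP672 like the fibre markers. MYL1 was at 8.44 against 17.1 to 17.6 in the other 4 animals, MYL3 at 8.81 against 13.7 to 14.1, and MYL4 at 11.6 against 16.2 to 16.5. MYL2 was at 11.5, MYL6B at 11.1 and MYLPF at 11.6, all below the other animals too. MYL6, the non-muscle and smooth muscle chain, was instead at 16.5 against 16.0 to 16.2. Results that its exclusion changed are therefore given with and without it. In the developmental experiment the other animals had fibre list levels of 12.2 to 12.7 at 60 days and at least 14.8 from birth on.

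**Figure D1:**
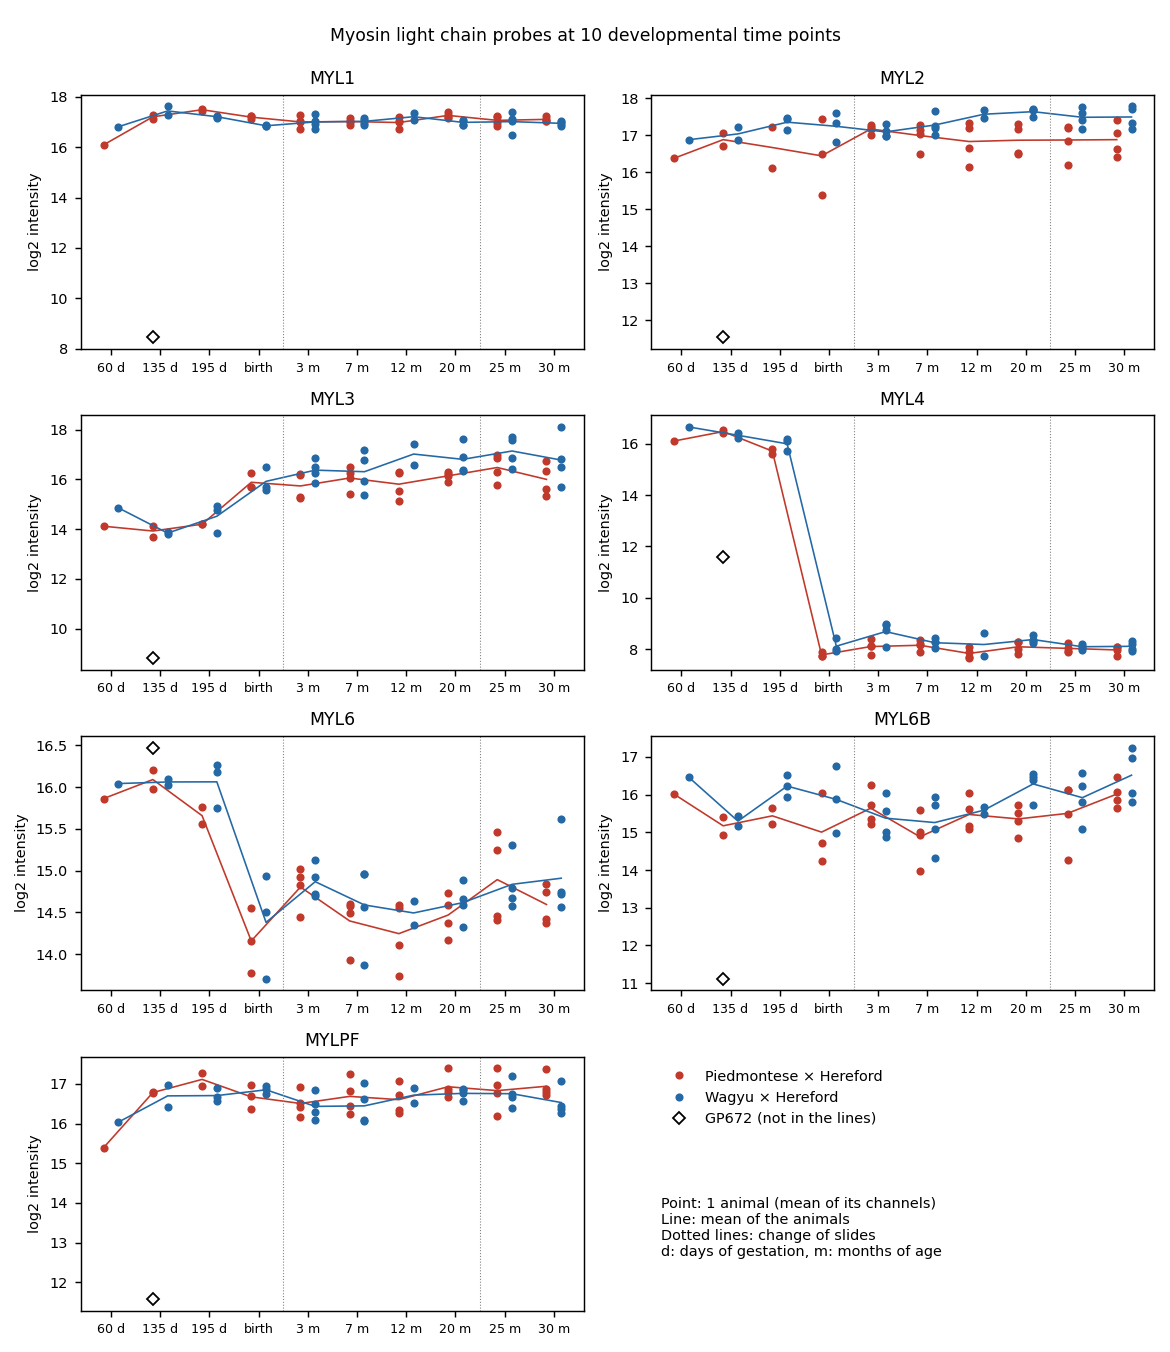
Log2 intensity of each light chain probe (vertical axis, one panel per gene) at 10 developmental time points (horizontal axis); a point is 1 animal, lines join the means of each cross and dotted lines mark a change of slides. MYL4 lies between 15.6 and 16.7 in the fetuses other than GP672 (open diamond) and between 7.65 and 8.98 from birth on, while MYL1 and MYLPF of these animals stay within 16.1 to 17.6 and 15.4 to 17.4.

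MYL4, the embryonic and atrial essential chain, had the largest change of the 7 members, a fall between 195 days of gestation and birth. The 5 fetuses of 195 days were at 15.6, 15.8, 15.7, 16.2 and 16.1 (GP041A and GP041B of the Piedmontese cross, then GW024, GW067 and GW600 of the Wagyu cross). The 6 newborn calves had a lowest level of 7.72, a median of 7.91 and a highest level of 8.42. The groups lay far apart, in both crosses. The change was -7.92 ± 0.38 log2 units, a 243-fold lower intensity at birth (limma adjusted p = 1.05e-22), and -7.91 ± 0.14 without GP672. Over all time points, the 11 fetuses other than GP672 lay between 15.6 and 16.7 and the 52 values from birth to 30 months between 7.65 and 8.98. These low values lie near the background. The probe of MYL7, which was not well above background in any channel at birth, had a mean of 6.75 there. MYL4 stayed at the low level: its highest and lowest means between 3 and 30 months differed by 0.37 log2 units, which was not called (adjusted p = 0.766). Without GP672 smaller changes of MYL4 were called as well, a fall of 0.55 ± 0.16 from 135 to 195 days (adjusted p = 0.00887), a rise of 0.45 ± 0.13 from birth to 3 months (adjusted p = 0.0028) and a difference among the months of age (adjusted p = 0.0158).

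Genes of the embryonic and fetal motor moved in the same interval. The level of MYH3, the embryonic heavy chain, was 17.4 to 17.8 at 195 days and 9.01 to 11.5 at birth, a change of -7.44 ± 0.53 (adjusted p = 7.47e-17). MYH8, the perinatal heavy chain, was at 12.3 to 14.0 at 195 days and 6.78 to 7.02 at birth, where only 1 of 6 channels was well above background. Its fitted change of -6.74 ± 0.32 (adjusted p = 8.02e-23) is therefore mostly a difference from the background level. MYL7, the atrial regulatory light chain, was well above background in too few channels to be tested. It is shown as a description, since its fetuses of 195 days already lay below those of 135 days without overlap. It was at 15.6 to 16.6 at 135 days without GP672 and at 9.57 to 12.8 at 195 days, and at birth it was not well above background in any of 6 channels. Its intensity was thus at least 668-fold higher at 135 days and at least 18.3-fold higher at 195 days than at birth. Of the other heart muscle markers, TNNI3 was at 8.01 to 8.90 at 195 days and 8.25 to 8.99 at birth.

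**Figure D2:**
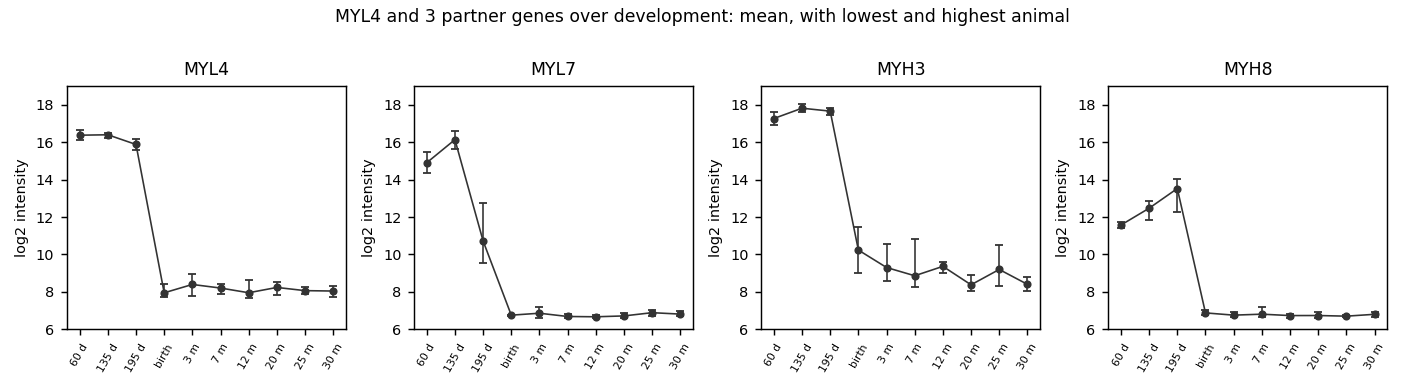
Mean log2 intensity (vertical axis) of MYL4, MYL7, MYH3 and MYH8 at 10 developmental time points (horizontal axis), without GP672; bars run from the lowest to the highest animal. All 4 genes are high before birth and low at birth, and MYL7 is already at 9.57 to 12.8 at 195 days.

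MYL6, the essential chain of non-muscle and smooth muscle myosin, fell in the same interval as MYL4 but by less. The fetuses of 195 days were at 15.8 and 15.6 in the Piedmontese cross and at 16.2, 15.7 and 16.3 in the Wagyu cross. The 6 calves at birth ranged from 13.7 to 14.9 with a median of 14.3, so that the groups did not overlap. The change was -1.61 ± 0.20 (limma adjusted p = 2.49e-09), a 3.05-fold lower intensity. With each array and dye only centred on its median, it was -0.87 and not called (adjusted p = 0.0979). MYL6 then rose by 0.55 ± 0.18 from birth to 3 months (adjusted p = 0.0104), when its 8 animals ranged from 14.4 to 15.1 and overlapped the calves. These arrays lie on other slides than those of birth, and age and slide cannot be told apart. That rise was not called with median centring (0.15, adjusted p = 0.86) or without the arrays numbered 2 (0.31, adjusted p = 0.271). From 3 to 30 months its highest and lowest means differed by 0.58 (adjusted p = 0.0071). Markers of other cells moved beside the fall at birth. Of the fibroblast probes, 4 of 6 fell, and the list level was 12.1 to 12.5 at 195 days and 11.0 to 11.3 at birth. Of the markers of proliferating cells, 3 of 3 fell, from 9.26 to 9.91 down to 6.96 to 7.30, and of the smooth muscle markers 3 of 6 fell and 1 rose. Of the endothelial markers 3 of 4 fell and 1 rose. Of the erythroid markers, 3 of 4 fell. Their part in the change of MYL6 was not tested.

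MYL3, the slow and ventricular essential chain, went the other way. At 195 days the fetuses were at 14.2 and 14.2 in the Piedmontese cross and at 13.9, 14.8 and 14.9 in the Wagyu cross, and the 6 calves at birth ranged from 15.6 to 16.5 with a median of 15.7. The groups did not overlap, and the rise was 1.53 ± 0.48 (limma adjusted p = 0.00479), or 2.89-fold. Without GP672 the rise was 1.54 ± 0.31 (adjusted p = 2.57e-05). Within the developmental experiment no fetus reached the level of any older animal: the fetuses lay between 13.7 and 14.9 without GP672, and the values from birth on between 15.1 and 18.1. After birth MYL3 varied more than MYL1, with a standard deviation of 0.70 against 0.19 over the 46 values of 3 to 30 months. These are repeated values of 9 animals, so age, slide and cross are mixed into this spread. The step at birth was not called in the other slow chain, MYL2, which changed by -0.22 ± 0.40 (adjusted p = 0.65). The difference between both chains was not tested. Slow fibre markers other than light chains were called higher at birth on 2 of 3 probes, and their list level was 15.2 to 16.1 at 195 days and 16.1 to 17.1 at birth. Fibre markers in general were called higher on 3 of 7 probes. The part of these shifts in the rise of MYL3 was not tested.

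Of the 7 members, 3 were called between 195 days and birth (1 higher, 2 lower), where 65.0% of the 15737 probes were called, so the share of members called was not above the background. Without GP672, 4 members were called against 66.5% of probes, the fourth being MYL1, which fell by 0.33 ± 0.12 (adjusted p = 0.0163). The median absolute change was 0.42 log2 units over the members and 0.43 over all probes, beside the -7.92 of MYL4.

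**Figure D3:**
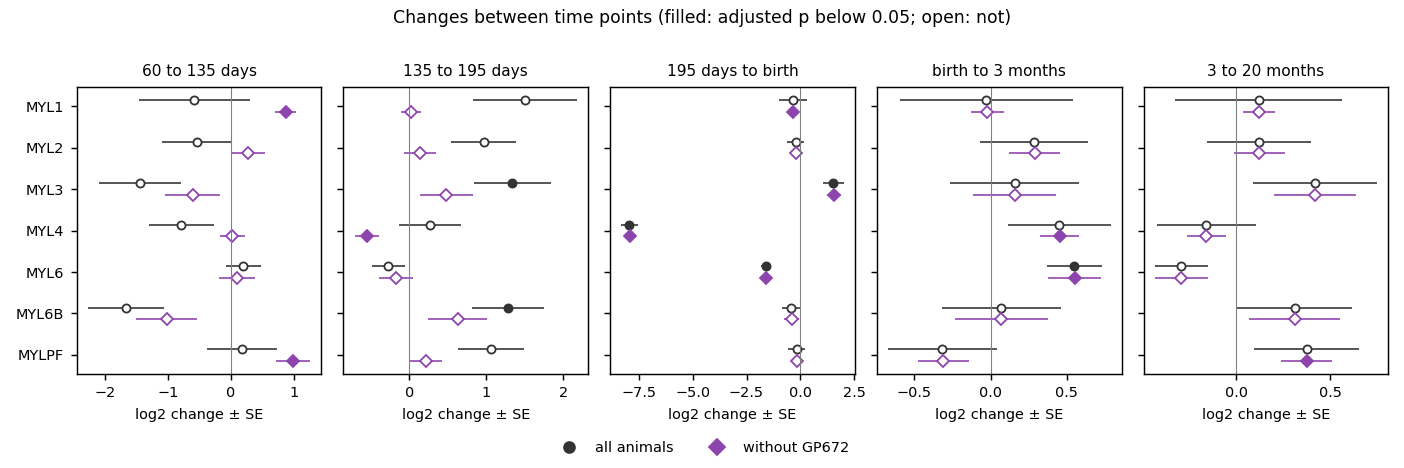
Log2 change ± SE of each member (horizontal axis, one panel per step between time points), with all animals (circles) and without GP672 (diamonds); filled symbols have an adjusted p below 0.05. MYL4 moves by -7.92 and -7.91 from 195 days to birth, and the earlier steps of MYL1 and MYLPF are called only without GP672.

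In the developmental experiment the fast chains MYL1 and MYLPF had their lowest means at 60 days, GP672 left out. At 60 days MYL1 was at 16.1 in the Piedmontese and 16.8 in the Wagyu cross fetus, and at 135 days at 17.1 and 17.3 in the Piedmontese (GP672 apart) and 17.3 and 17.6 in the Wagyu cross fetuses. MYLPF was at 15.4 and 16.0 at 60 days and then at 16.8, 16.8, 16.4 and 17.0 in the same 4 animals. For both genes these 4 animals lay above both fetuses of 60 days. With all animals, however, neither step was called: MYL1 changed by -0.58 ± 0.88 and MYLPF by 0.17 ± 0.56. Without GP672, MYL1 rose by 0.87 ± 0.17 (limma adjusted p = 0.000112) and MYLPF by 0.99 ± 0.27 (adjusted p = 0.00555). The count of members called from 60 to 135 days was thus 0 of 7 with all animals, where 15.0% of probes were called, and 2 of 7 without GP672, where 18.7% were called. At an unadjusted p below 0.05 the count with all animals was 2 of 7. Each cross had 1 animal at 60 days, so the spread there rests on the other times. From 135 days on, MYL1 was nearly level, with 52 values from birth to 30 months between 16.5 and 17.4. MYLPF was between 16.1 and 17.4 over the same values, and without GP672 it rose by 0.38 ± 0.14 from 3 to 20 months (adjusted p = 0.0334).

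MYL2 and MYL6B had no step that held with and without GP672. MYL6B was at 16.0 and 16.5 at 60 days and at 15.4, 14.9, 15.2 and 15.4 at 135 days in the animals other than GP672, which did not overlap. Its change was -1.67 ± 0.61 with all animals (limma adjusted p = 0.0565) and -1.02 ± 0.49 without GP672 (adjusted p = 0.152), so it was not called. From 135 to 195 days, MYL6B (1.28 ± 0.47, adjusted p = 0.0409) and MYL3 (1.34 ± 0.50, adjusted p = 0.0488) were called higher, 2 of 7 members against 22.2% of all probes. Without GP672 these changes were 0.63 ± 0.38 (adjusted p = 0.258) and 0.48 ± 0.34 (adjusted p = 0.36). The only member then called was MYL4, 1 of 7 against 22.1% of probes, so the rises of MYL3 and MYL6B were not called in the other animals. At birth MYL2 spread widely, with the Piedmontese calves at 16.5, 17.4 and 15.4 and the Wagyu calves at 17.3, 16.8 and 17.6. The calves measured with the dye Cy5 (17.4, 17.3 and 17.6) all lay above those measured with the other dye, Cy3. These levels are not adjusted for dye, and the fitted Cy5 minus Cy3 of MYL2 in the developmental experiment was 0.59 log2 units. The part of the dye in this spread was not tested.

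From 3 to 30 months the median difference between the highest and lowest mean was 0.38 log2 units over the members and 0.35 over all probes. From birth to 3 months 1 of 7 was called, MYL6, against 47.9% of probes, and without GP672 MYL4 and MYL6 were called against 50.2%. From 3 to 20 months, which share their slides, 0 of 7 were called against 26.4% of probes, with 1 at an unadjusted p below 0.05. Without GP672 1 was called, MYLPF, against 27.9%. Over the 6 time points from 3 to 30 months, 2 of 7 differed with age in the limma F test, MYL6 and MYL6B, against 62.9% of probes. Without GP672 they were 4, with MYL3 and MYL4 added, against 64.9%. MYL6B had its lowest mean of these ages at 7 months, where 8 animals ranged from 14.0 to 15.9, and its highest at 30 months, where they ranged from 15.6 to 17.2. The means differed by 1.19 log2 units (adjusted p = 0.0288), a call that was lost in 5 of 14 other settings, among them without the arrays numbered 2 (0.88, adjusted p = 0.0911). The slides change between 20 and 25 months, so that part of this span cannot be told apart from slide.

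Put in order of their means over the 10 time points, with GP672 left out, most neighbours did not differ beyond the spread of their animals. For MYL1, MYL2 and MYL6B all 9 pairs of neighbours overlapped. MYL3, MYL4, MYL6 and MYLPF each had 1 pair that did not, namely birth above 60 days for MYL3, 195 days above 3 months for MYL4, 195 days above 25 months for MYL6 and 3 months above 60 days for MYLPF. The order was set by these same means. The share of all probes with such a pair was not counted, so no excess over other genes can be read from it. The highest and lowest means lay 8.46 log2 units apart for MYL4, 2.93 for MYL3 and 1.81 for MYL6. The other spans were 1.19 for MYL6B, 1.15 for MYLPF, 0.87 for MYL1 and 0.62 for MYL2.

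The crosses were compared within each time point, as Piedmontese minus Wagyu. At 135 days no member was called, with 0.0254% of probes called, although 6 of 7 members had an unadjusted p below 0.05, beside 1240 of all probes. With the array as the block in place of the animal, 6 of 7 were called, and with the deposited log ratios 3 of 7. The shares of all probes called under these settings are not given here, so no excess of members can be read from these counts. The difference in MYL1 was -3.28 ± 0.96 (limma adjusted p = 0.218), and it rested on GP672: without that fetus it was -0.22 ± 0.20, no member had an unadjusted p below 0.05, and 0.00635% of probes were called. At 195 days 0 of 7 were called against 0.0381% of probes, and at birth 0 of 7 against 1.55%, with no member at an unadjusted p below 0.05 at either time. Without GP672, 0 of 7 were called at each of these times too. An unadjusted p below 0.05 was then found in 1 member at 195 days (563 of all probes) and 2 at birth (2343 of all probes). MYL2 was among them at both times, with -0.75 ± 0.28 at 195 days (limma adjusted p = 1.00) and -0.66 ± 0.26 at birth (adjusted p = 0.172). MYL1 was at 17.2, 17.2 and 17.1 in the Piedmontese and at 16.9, 16.8 and 16.9 in the Wagyu cross calves at birth, which did not overlap, a difference of 0.34 ± 0.16 without GP672 (adjusted p = 0.316). For a difference between the crosses in the change from 135 to 195 days, 0 of 7 members were called (2 at an unadjusted p below 0.05, beside 780 of all probes), with 0.00635% of probes called with all animals and 0.00635% without GP672. For the change from 195 days to birth it was 0 of 7 (none at an unadjusted p below 0.05) and 0.0826% of probes. For MYL4 the difference in that last step was 0.02 ± 0.77, with an interval of 2 SE from -1.51 to 1.55 log2 units, and -0.07 ± 0.29 without GP672 (-0.65 to 0.51).

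Over 3 to 30 months each animal entered once, as its mean deviation from the time points it was measured at. GP273 of the Piedmontese cross, measured at only 1 time point, had the same weight as the others. None of the 7 members was called, nor was any other probe (0.0%), while 738 probes and 1 member had an unadjusted p below 0.05. That member was MYL2, the slow regulatory chain. The 5 Piedmontese cross animals lay at -0.41, -0.36, -0.27, -0.04 and 0.02 log2 units from the mean, and the 4 Wagyu cross animals at 0.05, 0.12, 0.34 and 0.37. The crosses did not overlap, yet the difference of -0.43 ± 0.11 had a limma adjusted p of 0.662. MYL3, its essential partner, differed by -0.57 ± 0.28 with overlapping animals: Wagyu cross animal GW169 was at 1.10 and GW245 at -0.45. The difference was -0.23 ± 0.17 for MYL6, -0.37 ± 0.20 for MYL6B and -0.21 ± 0.10 for MYL4. The fast chains differed least, by 0.04 ± 0.06 for MYL1 and 0.07 ± 0.14 for MYLPF.

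**Figure D4:**
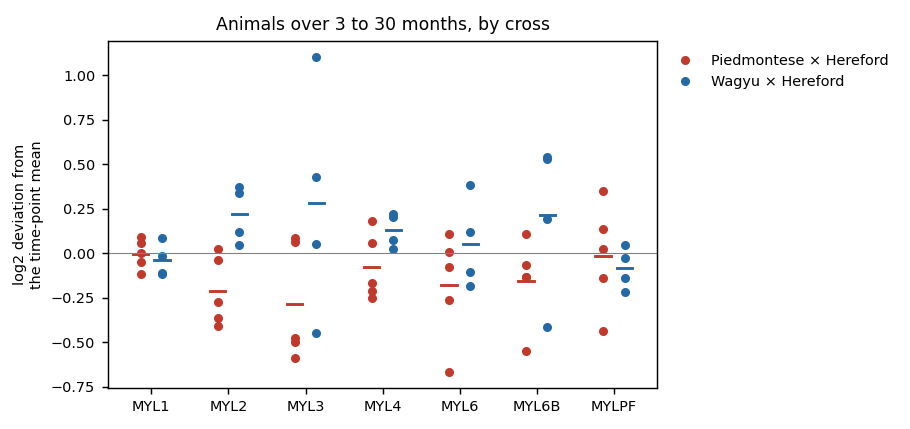
Mean log2 deviation of each animal from the time-point means over 3 to 30 months (vertical axis) for each member (horizontal axis); points are the 5 Piedmontese and 4 Wagyu cross animals, short lines their means. In MYL2 the Piedmontese cross animals (-0.41 to 0.02) lie below the Wagyu cross animals (0.05 to 0.37), and in MYL3 the Wagyu cross animal at 1.10 lies apart.

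In the diet experiment, the slow and ventricular essential chain MYL3 and the fast essential chain MYL1 were lower on the weight loss diet at time 1. MYL3 was at 11.9, 11.3 and 12.0 in the 3 animals on the loss diet (RL24, RL27 and RL671) and at 14.8, 15.6, 16.3 and 16.4 in the 4 on the growth diet. All restricted animals lay below all growing animals, by -3.99 ± 0.51 log2 units, or 15.9-fold (limma adjusted p = 0.000292). RL24 was on 2 arrays, which gave 12.0 and 11.7. At time 0 the same diets overlapped, at 15.7 to 16.1 and 15.2 to 16.7, and the difference was -0.01 ± 0.47. At time 2 the 2 animals of the loss diet were at 14.2 and 14.7 and those of the growth diet at 13.1 and 15.8, so that one growing animal lay below both restricted ones. The change from time 0 to 1 differed between the diets by -3.98 ± 0.64 (adjusted p = 0.00418) and that from time 1 to 2 by 4.10 ± 0.79 (adjusted p = 0.0199). Without the first array of each time these were -3.74 (adjusted p = 0.0919) and 3.80 (adjusted p = 0.141), and the second was not called without array 2 (3.96) or 4 (4.18) either.

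MYL1 had the smallest error of these differences. At time 1 it was at 15.8, 15.8 and 16.2 on the loss diet and at 17.8, 18.4, 18.2 and 17.7 on the growth diet, a difference of -2.05 ± 0.16 log2 units, or 4.15-fold (limma adjusted p = 1.14e-05). At time 0 all 8 animals were between 17.0 and 17.4. At time 2 the order was turned, with 17.6 and 17.3 on the loss diet and 16.7 and 16.8 on the growth diet, a difference of 0.81 ± 0.21 that was not called (adjusted p = 1.00). Each diet time lies on its own slide, so a change over time within 1 diet cannot be told apart from slide, whereas the contrast of the diets within a slide can. The diets differed in the change of MYL1 from time 0 to 1 by -1.92 ± 0.20 (adjusted p = 0.000666) and from time 1 to 2 by 2.87 ± 0.25 (adjusted p = 7.01e-05).

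MYL4 and MYL6 were lower on the loss diet at time 1 as well, without overlap. MYL6 was at 13.5, 13.5 and 14.0 against 14.7, 14.6, 14.6 and 15.1, a difference of -1.13 ± 0.23 (limma adjusted p = 0.00487). MYL4, at its low level of post-natal muscle near the background, was at 7.46, 7.38 and 7.22 against 7.78, 8.37, 8.17 and 8.06. The difference was -0.75 ± 0.17 (limma adjusted p = 0.00685). Without the first array of each time, the differences were -1.04 for MYL6 (adjusted p = 0.0521) and -0.65 for MYL4 (adjusted p = 0.085), and without the fourth -0.63 for MYL4 (adjusted p = 0.101). The regulatory chains were not called: MYL2 differed by -0.72 ± 0.33 (adjusted p = 0.144) and MYLPF by -0.34 ± 0.19 (adjusted p = 0.22), and their animals overlapped. MYL6B differed by -1.15 ± 0.63 (adjusted p = 0.229).

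In all, 4 of 7 members were lower and none higher at time 1, where 17.8% of probes were called, and the median difference was -1.13 over the members and -0.000113 over all probes. At time 0, 0 of 7 were called against 3.65% of probes, with none at an unadjusted p below 0.05. At time 2, 0 of 7 were called against 0.0% of probes, with 1 member (MYL1) and 238 probes at an unadjusted p below 0.05. The diets differed in the change from time 0 to 1 in 2 of 7 members (10.2% of probes) and in the change from time 1 to 2 in the same 2, MYL1 and MYL3 (1.73% of probes). MYL6 lay next to the threshold in the change from time 0 to 1 (-0.98 ± 0.30, adjusted p = 0.0503) and was called under 6 other settings, among them quantile normalization (-1.09, adjusted p = 0.0329) and the array as a block (adjusted p = 0.0152).

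Muscle markers moved beside these differences at time 1. Of the skeletal muscle fibre probes, 3 of 7 were lower on the loss diet and 1 higher, and the list level was 14.1 to 14.5 on the loss diet and 15.4 to 16.1 on the growth diet. ACTA1 was at 11.6 to 11.9 against 17.3 to 18.4, a difference of -6.05 (limma adjusted p = 9.71e-09), and CKM, the muscle creatine kinase, differed by -1.50 (adjusted p = 0.00415). DES, which encodes desmin, was higher by 1.34 (adjusted p = 0.0106). The slow list was lower on 2 of 3 probes (16.3 to 16.8 against 17.0 to 17.6) and the fast list on 3 of 3 (15.8 to 16.5 against 17.4 to 18.4). Markers of other cells were lower too, on 4 of 6 smooth muscle, 3 of 6 fibroblast, 3 of 4 endothelial and 3 of 3 proliferating cell probes. The fibroblast list was at 9.39 to 10.03 against 11.2 to 12.0. No adipocyte, erythroid or leukocyte probe was called. The part of these shifts in the differences of the light chains was not tested.

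**Figure D5:**
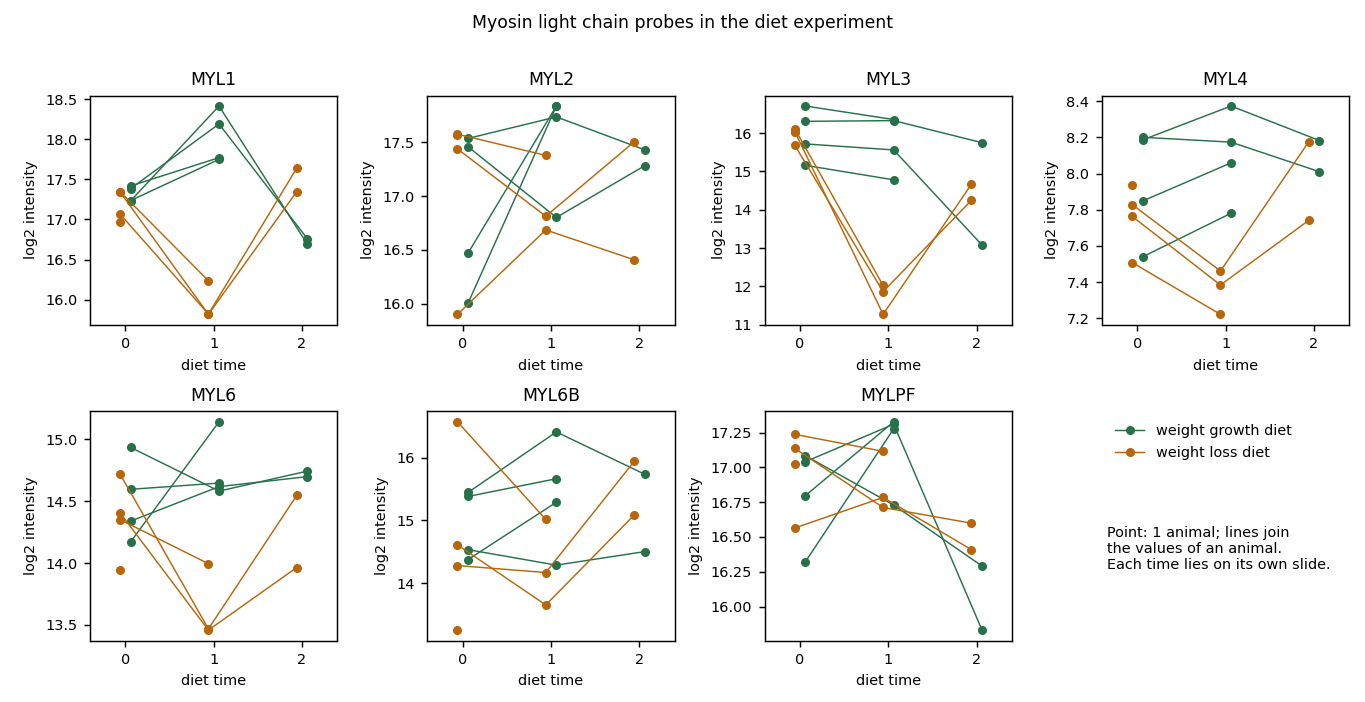
Log2 intensity of each member (vertical axis, one panel per gene) at diet times 0, 1 and 2 (horizontal axis); points are animals, and lines join the values of an animal on the weight loss (orange) or weight growth diet (green). At time 1 the loss diet lies below the growth diet without overlap in MYL1, MYL3, MYL4 and MYL6, with MYL3 at 11.3 to 12.0 against 14.8 to 16.4.

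The proteins that work with the light chains were followed in a list of 30 genes, the myosin heavy chains, other light chains, light chain kinases, phosphatase subunits and assembly factors. Of these, 26 had a probe, and 27 probes of 24 genes were tested. For MYH1 and MYLK2, with 2 tested probes each, the value given is that of the probe with the largest called change. From 60 to 135 days 4 of 27 probes rose and none fell, against 15.0% of all probes called. MYH11 rose by 2.52 ± 0.59 and MYLK2, the skeletal muscle light chain kinase, by 1.56 ± 0.46. Without GP672 the count was 12 up and 1 down, against 18.7% of all probes. MYH11 was then at 1.73 ± 0.36 and MYLK2 at 2.23 ± 0.24. From 135 to 195 days 10 rose and 1 fell, against 22.2% of all probes called. The rises were led by the adult fast heavy chain MYH1 with 4.26 ± 0.25 log2 units, MYH8 with 1.80 ± 0.34 and MYH4 with 1.80 ± 0.27. Without GP672 these rises were 3.79 ± 0.14, 1.12 ± 0.15 and 1.43 ± 0.22. The count was then 10 up and 2 down, against 22.1% of all probes.

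From 195 days to birth 8 of the 27 partner probes rose and 6 fell, against 65.0% of all probes called. Without GP672 10 rose and 7 fell, against 66.5% of all probes. After MYH3 and MYH8, the largest changes were in MYL12A, a regulatory light chain of non-muscle myosin, which rose by 1.92 ± 0.23 (limma adjusted p = 6.94e-10), and PPP1CB, the catalytic subunit of myosin phosphatase, which rose by 1.79 ± 0.10. From birth to 3 months 6 rose and 3 fell, against 47.9% of all probes called. MYLK2 was up by 1.85 ± 0.30, SMYD1, a myosin assembly factor, by 0.71 ± 0.25, and MYL9, the smooth muscle regulatory light chain, by 0.64 ± 0.16. Without GP672 6 rose and 4 fell, against 50.2% of all probes, and MYH3 was among them with -0.95 ± 0.28. From 3 to 20 months 2 rose and 3 fell, against 26.4% of all probes called. MYL9 fell by 1.32 ± 0.13 (adjusted p = 7.68e-11) and MYL12A rose by 0.77 ± 0.16. Without GP672 3 rose and 4 fell, against 27.9% of all probes, among them MYH3 with -0.93 ± 0.23 and UNC45B, a myosin chaperone, with 0.60 ± 0.11. Over 3 to 30 months 12 differed with age, against 62.9% of all probes, led by MYL9, MYL12A, MYH3 and UNC45B. Without GP672 14 differed, against 64.9% of all probes. Between the crosses limma called 0 of the 27 at 135 days (12 at an unadjusted p below 0.05, and 3 without GP672), 0 at 195 days (1), 0 at birth (1) and 0 over the months after birth (5). At most 1.55% of all probes were called in any of these. At 135 days 1240 of all 15737 probes had an unadjusted p below 0.05, and 215 without GP672. The counts of all probes were 449 at 195 days, 2091 at birth and 738 over the months after birth. Without GP672 4 partner probes had such a p at 195 days and 2 at birth, beside 563 and 2343 of all probes.

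In the diet experiment 1 partner probe, of the chaperone HSP90AA1, was lower on the loss diet at time 0, by 0.73 log2 units (-0.73 ± 0.15). There 3.65% of all probes were called. At time 1, 10 of 27 were lower and 2 higher, against 17.8% of all probes called. MYH1 differed by -2.06 ± 0.56, MYL9 by -1.68 ± 0.18, MYH7, the slow heavy chain, by -1.36 ± 0.36 and MYH4 by -1.24 ± 0.36. The other probe of MYH1 differed by -1.76. The diets differed in the change from time 0 to 1 in 3 partner probes, of MYH1, MYL9 and MYLK3, all lower on the loss diet. The share of all probes was 10.2%. In the change from time 1 to 2 the diets differed in MYL9 (1.71 ± 0.28) and MYH9, a non-muscle heavy chain (1.14 ± 0.21), against 1.73% of all probes. At time 2 limma called 0 of 27 and 0.0% of all probes. An unadjusted p below 0.05 was found in 2 partner probes and in 238 of all probes.

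For each member, the 3 genes most like it were taken by Pearson's r over the 26 condition means, which share arrays and animals. MYL4 had the closest: MAGED1 (r = 0.99), CHODL (0.99) and TCAF1 (0.98). MYL6 had MRC2 (0.97), TAGLN2 (0.97) and CHST2 (0.96). The 3 nearest to MYL3 were CLDN9 (0.86), TFRC, the transferrin receptor (0.86), and SULT2B1 (0.85). MYL2 had the slow heavy chain MYH7 (0.86), ACTN2 (0.83) and SH3BGR (0.82). MYL1 had SRL (0.90), ACTN2 (0.83) and TPM1 (0.80), and MYLPF had STAC3 (0.89), the fast troponin C gene TNNC2 (0.87) and PDE4DIP (0.87). The least close were those of MYL6B, MYH7B (0.67), SCOC (0.63) and HABP4 (0.63). Without GP672, r fell to 0.50 for MYL1 and ACTN2, to 0.60 for MYL2 and ACTN2 and to 0.74 for MYL1 and SRL, while that of MYL4 and MAGED1 was 0.99. The 3 genes nearest to MYL6B were then IDH1 (0.71), ANTKMT (0.70) and BCAT2 (0.69). Among the members themselves and without GP672, MYL4 and MYL6 were most alike (r = 0.93), followed by MYL1 and MYLPF (0.58). MYL3 and MYL4 ran opposite (-0.51), and the slow chains MYL2 and MYL3 had r = 0.40.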

How the data were processed

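RNA of longissimus muscle was hybridised to 48 2-colour Agilent arrays (96 channels, 12 slides, 6 scan sessions). The values deposited per spot and dye were the mean fluorescence intensity, the local background intensity and quality flags of Agilent Feature Extraction 9.5.1 (version from the submitters' processing notes), not yet normalized between arrays. The authors deposited a log10 ratio too (red, Cy5, over green, Cy3, already corrected for dye within its array), used only as an alternative, and their series table repeats it (0 of 44407 spots differed). The authors' mixed-model values were not used here.

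Intensities were corrected by normexp (offset 50), normalized by loess within and Aquantile between arrays (limma 3.58.1, R 4.3.3), and outlier-flagged spots (2 to 797 per array) were left out. Well above background were 49.9% to 72.8% of probes in Cy3 and 55.1% to 76.4% in Cy5, and the number of arrays limits the precision. Probes well above background in at least 24 channels with a value on every array were tested (15737 of 21475). Values were averaged per animal and time (64 and 19 values), and conditions were fitted with a dye covariate and the animal as a random block (correlation 0.276 and 0.136). Printed levels are not adjusted for dye (Cy5 minus Cy3 of the members -0.24 to 0.76 log2 units), so that differences of printed means can depart slightly from the fitted changes. For the crosses after birth, each animal gave 1 value. P-values are two-sided and adjusted by Benjamini-Hochberg over all probes tested, with a threshold of 0.05. Of the levels of gene lists, each is the mean over its tested probes. The fits were tested on simulated data.

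The members and lists were chosen with earlier results of these data known. Every member is named, and for each the 3 genes most alike over condition means. Of the partner list, counts and at most 4 genes with the largest called change per comparison are named, and MYL7 was added after its values were seen. Genes were named through the array's descriptions and the RefSeq table (13808 probes matched by accession or identifier). Groups came from the sample labels and their crosses' second parent from the paper. GP041A and GP041B were counted as separate animals. The labels do not say whether repeated samples of an animal are separate biopsies, so p-values measure the spread between these samples.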

Additional observations from a re-analysis of the deposited data

Results flagged for a closer look

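Of 119 groups of 4 to 10 animals (a member at a time point, by cross or diet or over both crosses before birth), 14 had an animal whose gap to the next exceeded the 95% critical value of Dixon's test. Chance gives about 1 in 20 such groups. Of the 14, 6 are the fetus GP672 at 135 days: MYL1 at 8.44, MYL2 at 11.5, MYL3 at 8.81, MYL4 at 11.6, MYL6B at 11.1 and MYLPF at 11.6. GP672 also had low fibre markers and high adipocyte markers, and what its sample held was not tested.

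Of the others, 4 were in MYL2: GW212 of the Wagyu cross at 20 months (17.5, the next animal 17.7), GP041B at 195 days (16.1, next 17.1), RL27 on the loss diet at time 0 (15.9, next 17.4) and RG208 on the growth diet at time 1 (16.8, next 17.7). All 4 stood low and were measured in Cy3 at that time. Cy5 minus Cy3 of MYL2 was 0.59 log2 units in the developmental and 0.76 in the diet experiment. The levels compared here are not adjusted for dye, and the part of the dye in these gaps was not tested. RG208, again in Cy3, was also low in MYLPF at time 1 (16.7, next 17.3). In MYL6, GP273 of the Piedmontese cross stood low at 7 months (13.9, next 14.5), GW179 of the Wagyu cross high at 30 months (15.6, next 14.7) and RG604 on the growth diet high at time 1 (15.1, next 14.6).

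The diets differed in the change over time of MYL1 and MYL3. The change from time 0 to 1 was lower on the loss diet by -1.92 log2 units in MYL1 and -3.98 in MYL3, and that from time 1 to 2 was higher by 2.87 and 4.10 (limma, adjusted p below the threshold in each).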

How the results depend on the processing

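Results were computed under 16 other settings and 1 more (without GP672) that was chosen after seeing the data. Of 1785 member results under them, 1702 kept their direction and side of the threshold, or were called in neither, 36 were no longer called, 43 became called and 4 changed direction. Those 4 were MYL1 from 60 to 135 days (0.79 without replicate 2, -1.25 to 0.79 with any replicate left out, 0.87 without GP672) and MYL4 from 135 to 195 days (-0.58 without replicate 2, -0.58 to 0.69 with any replicate left out, -0.55 without GP672). Replicate 2 includes the array of GP672.

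The fall of MYL4 at birth was called in 15 of 15 alternatives (-8.03 to -7.42), the rise of MYL3 at birth in 15 of 15, and the lower MYL1 and MYL3 on the loss diet at time 1 in 14 of 14 each (-2.30 to -1.65 and -4.26 to -3.71). The fall of MYL6 at birth lost its call under median centring (-0.87). The rises of MYL3 and MYL6B from 135 to 195 days each lost theirs in 9 of 15. MYL4 and MYL6 on the loss diet at time 1 lost theirs without replicate 1 (and MYL4 also without replicate 4), and the change of MYL3 from time 1 to 2 lost its call under 4 alternatives.

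The number of members called moved as follows, and the share of all probes called under each setting is not given beside it. From 60 to 135 days (0) it was 2 with the array as a block, 0 to 2 with a replicate left out and 2 without GP672. From 135 to 195 days (2) it was 1 with quantile normalization, 0 with median centring, 0 without the filter, 1 without the dye covariate, 4 with the slide as a block, 0 with the array as a block, 0 with GP041A and GP041B as 1 animal, 1 without GP672 and 0 to 4 with a replicate left out. From 195 days to birth MYL6 lost its call with median centring, while MYL2 became called without replicate 2 and MYL1 without GP672. From birth to 3 months (1) the number called was 0 with median centring and 2 without GP672, and from 3 to 20 months (0) it was 0 to 1 with a replicate left out and 1 without GP672. Between the crosses at 135 days (0) it was 6 with the array as a block, 3 with the deposited log ratios and 0 to 2 with a replicate left out, at birth (0) 0 to 1 with a replicate left out, and for the difference in the step from 135 to 195 days (0) 2 with the array as a block. Over the months after birth (2) it was 0 with median centring, 0 with the array as a block, 1 to 2 with a replicate left out and 4 without GP672. For the crosses after birth (0) it was 2 (MYL2 and MYL3) with the array as a block and 1 (MYL3) with the deposited log ratios, which treat repeated animals as independent. At diet time 1 (4) it was 2 to 4 with a replicate left out, for the change from time 0 to 1 (2) 1 to 3, and for that from time 1 to 2 (2) 1 with median centring and 1 to 2 with a replicate left out. The cause was not tested. The slide as a block gives no value from birth to 3 months, over the months after birth or for the diets.

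No paired analysis was possible because the replicate numbers were given in accession order and pair no animals across groups. That holds for these numbers alone: animals measured at several times were linked by the animal as a block, and animals sharing an array by the array block and by the deposited log ratios.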
